A study of Mus musculus with 4 samples.

Results

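Aminoacyl-tRNA synthetases are the enzymes that join each amino acid to its transfer RNA, and their 37 genes in the mouse oocyte table are described here. They were taken by symbol alone, as a single capital letter followed by ars or ars2, with Eprs, Farsa and Farsb added, out of 23235 genes. The 17 symbols that end in 2 were read as mitochondrial and the other 20 as cytosolic, with no use of measured values. Each of the 4 libraries was made from 10 pooled oocytes of C57B6 mice by Smart-seq2, an oligo-dT primed full-length cDNA method. In growing deletion oocytes, from mice of 14 days, both Dcaf13 alleles were floxed and the Gdf9-Cre transgene was present (Dcaf13fl/fl;Gdf9-Cre). The growing control oocytes, of the same age, carried the floxed alleles without Cre (Dcaf13fl/fl). Fully grown deletion oocytes had the Cre genotype and fully grown control oocytes had only the floxed alleles. Both fully grown groups came from mice of 23 days, 48 h after 5 IU of PMSG, a gonadotropin that drives follicle growth. The Gdf9 promoter is active in oocytes from early follicle growth on, and how many mice were pooled is not stated in the labels. Each group held 1 library, so every value is that of a single library: the error of a difference is unknown and nothing was tested.

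A synthetase activates its amino acid with ATP and then transfers it to the end of the matching tRNA. The enzymes fall into class I and class II, which have unrelated catalytic folds. Cytosolic synthetases serve the ribosomes that make most of the cell's proteins, while a separate nuclear-encoded set is imported into mitochondria for the few proteins made there. In mammals Gars and Kars each make both a cytosolic and a mitochondrial enzyme, Qars has no mitochondrial counterpart, and Eprs joins a glutamate and a proline enzyme in a single chain. The enzymes of 8 of the cytosolic genes, with the scaffold proteins of Aimp1, Aimp2 and Eef1e1, sit in a multisynthetase complex. The product of Dcaf13 works in the nucleolus on ribosome assembly and also picks substrates for CRL4, a ubiquitin ligase. Growing oocytes build up a large store of ribosomes.

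Levels are in FPKM, which divides a gene's fragments by its transcript length and by all mapped fragments of its library. Genes can therefore be compared with each other, but each level is a share of a library, and fewer cells of a type and less RNA per cell cannot be told apart. Differences are given as log2(FPKM + 1), with a pseudocount of 1 that shrinks the difference of low genes. The size rule called a gene higher or lower where the larger of its values was no less than 5 FPKM and its difference was 1 or more in size. A second, smaller size of 1.5-fold in FPKM + 1 is given beside it. All values use a re-pairing of the table, in which the value rows go with the symbols sorted in byte order, a step inferred from the values. Of the 37 synthetase genes, 31 take another row by this step and 6 keep theirs. Dcaf13 stood at 38.9 FPKM in growing deletion and 96.1 FPKM in growing control oocytes, and at 64.0 FPKM in fully grown deletion and 160.2 FPKM in fully grown control oocytes. The 10 oocyte markers looked at were at 65.6 FPKM or more in every library. The 10 granulosa cell markers summed to 17.3 FPKM in growing deletion and 34.4 FPKM in growing control oocytes, and to 28.9 FPKM in fully grown deletion and 27.3 FPKM in fully grown control oocytes. Cyp19a1 was at 7.75 FPKM in growing deletion and 17.7 FPKM in growing control oocytes, and at 16.8 FPKM in fully grown deletion and 19.0 FPKM in fully grown control oocytes. Amh was listed at 0 in both fully grown libraries, and the markers of theca and stroma summed to at most 0.98 FPKM in a library. Blood markers summed to at most 3.62 FPKM, with Cd68 between 1.06 and 3.55 FPKM and both globins at 0 in all 4 libraries. Endothelial markers summed to 13.3 to 20.8 FPKM, with Cdh5 at 0 in all 4 and Tek between 1.18 and 2.08 FPKM. Pecam1 was at 12.9 FPKM in growing deletion and 11.6 FPKM in growing control oocytes, and at 18.7 FPKM in fully grown deletion and 12.3 FPKM in fully grown control oocytes. The part of such RNA in the results below was not tested.

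Cytosolic synthetase RNAs were abundant with few exceptions, and their order was nearly the same in every library. Of the 20 genes, 18 stood at 5 FPKM or more in each library. Their median was 37.4 FPKM in growing deletion, 30.8 FPKM in growing control, 33.8 FPKM in fully grown deletion and 28.0 FPKM in fully grown control oocytes. The highest was the glutamine enzyme gene Qars, at 146 FPKM in growing deletion and 168 FPKM in growing control oocytes, and at 133 FPKM in fully grown deletion and 135 FPKM in fully grown control oocytes. Next came the arginine enzyme gene Rars, at 121 FPKM in growing deletion and 92.0 FPKM in growing control oocytes, and at 125 FPKM in fully grown deletion and 113 FPKM in fully grown control oocytes. Both are enzymes of the multisynthetase complex. The 8 enzyme genes of that complex were spread widely, although their products share a particle. In growing control oocytes they ran through Qars, Rars, Iars (isoleucine, 86.7 FPKM), Kars (lysine, 36.1 FPKM), Dars (aspartate, 28.7 FPKM), Eprs (27.2 FPKM) and Lars (leucine, 9.19 FPKM) to Mars (methionine, 7.49 FPKM).

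The cytosolic phenylalanine enzyme is built from the products of Farsb and Farsa, and the ratio of their FPKM varied little between libraries. Farsb stood at 88.1 FPKM in growing deletion and 86.1 FPKM in growing control oocytes, and at 94.1 FPKM in fully grown deletion and 92.9 FPKM in fully grown control oocytes. Farsa stood at 39.5 FPKM in both growing libraries, and at 43.3 FPKM in fully grown deletion and 40.8 FPKM in fully grown control oocytes. The ratio of Farsb to Farsa was 2.23 and 2.18 in growing deletion and control oocytes, and 2.17 and 2.28 in fully grown deletion and control oocytes. With a trend of GC content and transcript length removed, as described below, the genes lay further apart. The deletion differences were then 0.11 for Farsb and -0.20 for Farsa in growing oocytes, and 0.08 and -0.11 in fully grown oocytes. Over growth they were 0.05 and 0.36 in the deletion, and 0.06 and 0.23 in controls. The ratio was not set against that of other gene pairs. Other class II genes of middle level were Nars (asparagine, 45.3 FPKM in growing control oocytes), Sars (serine, 38.4 FPKM) and Gars (glycine, 32.8 FPKM). The class I gene Wars (tryptophan) stood at 38.9 FPKM in the same library, and Tars (threonine, class II) and Cars (cysteine, class I) at 21.4 and 18.6 FPKM.

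At the low end were Hars (histidine), Aars (alanine), Lars and Mars, all between 5.97 and 18.2 FPKM in the 4 libraries. Lower still was Vars, the valine enzyme gene, at 1.86 FPKM in growing deletion and 1.55 FPKM in growing control oocytes, and at 1.87 FPKM in fully grown deletion and 0.966 FPKM in fully grown control oocytes. The tyrosine enzyme gene Yars was the lowest, at 0.644 FPKM in growing deletion and 0.543 FPKM in growing control oocytes, and at 0.217 FPKM in fully grown deletion and 0.427 FPKM in fully grown control oocytes. Neither of these genes reached 5 FPKM in any library, so the size rule could not call them.

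Mitochondrial synthetase RNAs were mostly scarce, with a few at high levels. Their median was 3.93 FPKM in growing deletion, 2.30 FPKM in growing control, 1.44 FPKM in fully grown deletion and 1.68 FPKM in fully grown control oocytes. Lars2, for leucine, was the most abundant synthetase RNA of all, at 202 FPKM in growing deletion and 240 FPKM in growing control oocytes, and at 277 FPKM in fully grown deletion and 305 FPKM in fully grown control oocytes. Fars2, for phenylalanine, followed at 157 FPKM in growing deletion and 142 FPKM in growing control oocytes, and at 151 FPKM in fully grown deletion and 135 FPKM in fully grown control oocytes. Together these genes held 76.5% and 82.3% of the summed mitochondrial FPKM in growing deletion and control oocytes, and 86.5% and 86.8% in fully grown deletion and control oocytes. Next in order was the arginine enzyme gene Rars2, between 25.0 and 35.2 FPKM.

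Sars2 (serine), Cars2 (cysteine), Tars2 (threonine), Yars2 (tyrosine) and Ears2 (glutamate) lay between 3.23 and 16.3 FPKM. The other 9 mitochondrial genes stayed under 5 FPKM in all libraries. They included Iars2 (isoleucine), Pars2 (proline), Aars2 (alanine), Vars2 (valine), Wars2 (tryptophan), Mars2 (methionine), Nars2 (asparagine) and Hars2 (histidine). Mars2 lay between 0.234 and 1.32 FPKM and Nars2 between 0.332 and 0.879 FPKM. Hars2 was the lowest of the 37 genes, at 0.371 FPKM in growing deletion and 0.255 FPKM in growing control oocytes, and at 0.037 FPKM in fully grown deletion and 0.0213 FPKM in fully grown control oocytes. Hars and Hars2 are similar neighbouring copies whose reads may have been shared between them, so their separate values are uncertain. Nars2, Hars2 and Yars were under 1 FPKM in every library, which left 34 genes measured at 1 FPKM or more in some library, 19 cytosolic and 15 mitochondrial.

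**Figure D1:**
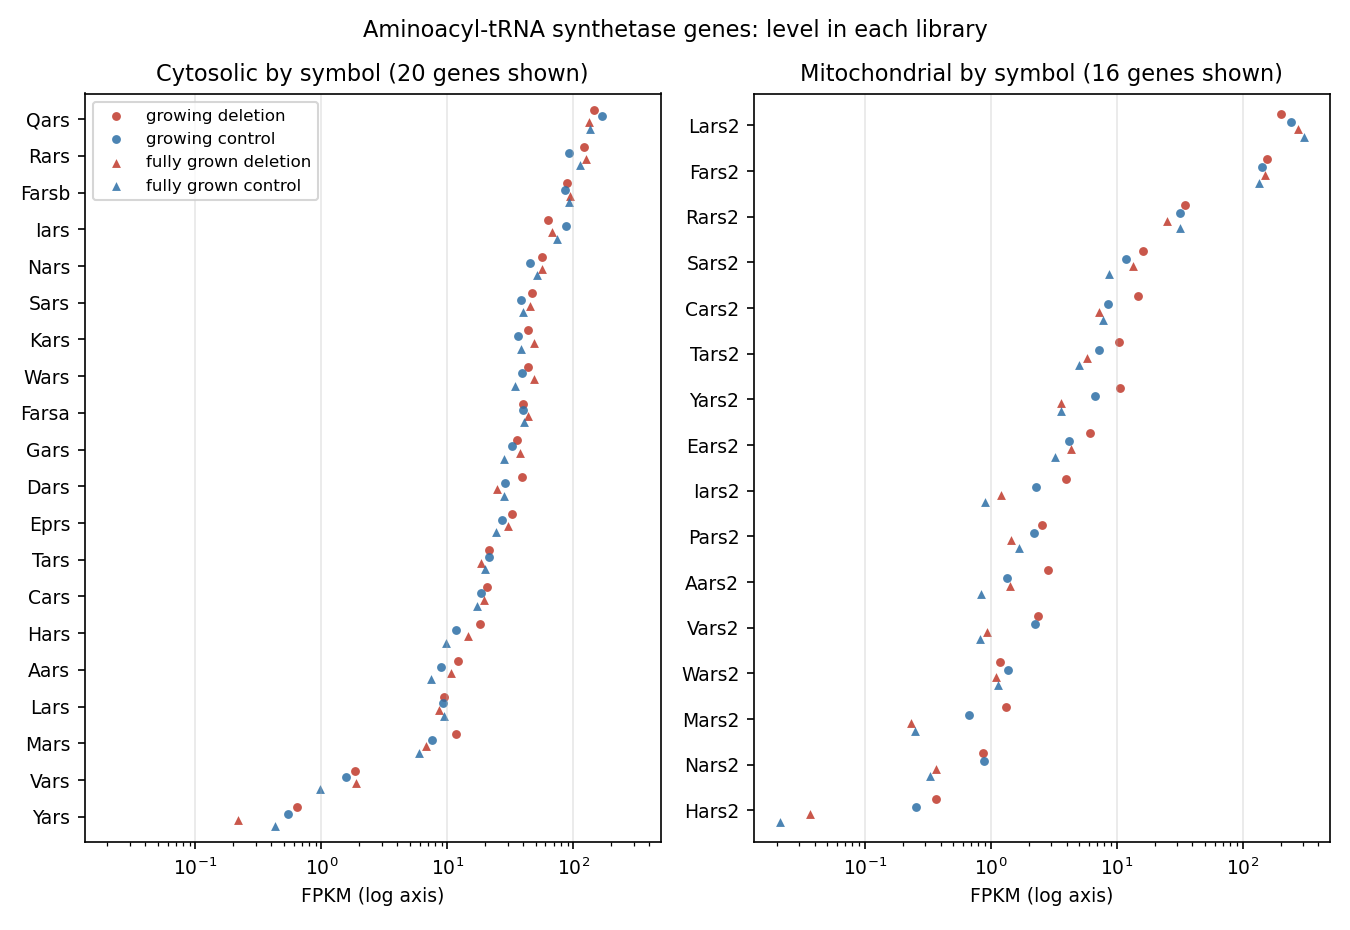
FPKM of 36 synthetase genes (log axis) in the 4 libraries, with cytosolic genes on the left and mitochondrial genes on the right, each sorted by its mean over the libraries; every point is 1 library. Lars2 stands highest, between 202 and 305 FPKM, and the mitochondrial genes spread down to Hars2 at 0.0213 FPKM.

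Of the amino acids, 14 have a cytosolic and a mitochondrial gene in the set, and most of these pairs had more cytosolic RNA. The count was 11 pairs with the cytosolic gene higher in all 4 libraries. Asparagine had the widest gap in growing oocytes, with Nars 65.6-fold and 51.6-fold over Nars2 in growing deletion and control oocytes, and 153-fold and 155-fold in fully grown deletion and control oocytes. Histidine had the widest in fully grown oocytes, with Hars over Hars2 at 49.1-fold and 45.7-fold in growing deletion and control oocytes, and 391-fold and 456-fold in fully grown deletion and control oocytes. The mitochondrial genes of both pairs were under 1 FPKM, so these ratios rest on very low values. Cysteine had the narrowest gap of the 11, with Cars 1.38-fold and 2.16-fold over Cars2 in growing deletion and control oocytes, and 2.65-fold and 2.197-fold in fully grown deletion and control oocytes. Leucine and tyrosine ran the other way in all 4 libraries. Lars stood at 9.47 FPKM and Lars2 at 202 FPKM in growing deletion oocytes, and at 9.19 and 240 FPKM in growing control oocytes. Yars stood at 0.644 FPKM and Yars2 at 10.7 FPKM in growing deletion oocytes, and at 0.543 and 6.71 FPKM in growing control oocytes. For valine the order changed, with Vars below Vars2 in both growing libraries and above it in both fully grown libraries, all at low levels.

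**Figure D2:**
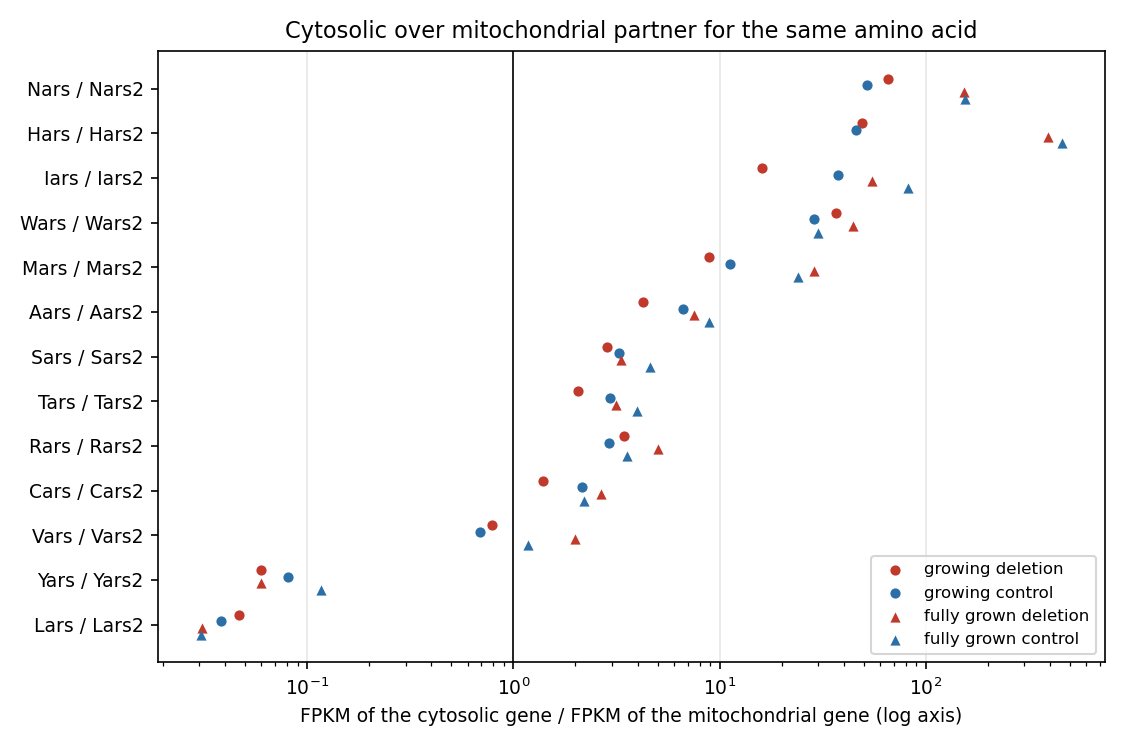
FPKM of the cytosolic gene divided by FPKM of the mitochondrial gene for the same amino acid (log axis), 1 row for each of 13 pairs and 1 point per library; the line marks equal levels. Points of Lars / Lars2 and Yars / Yars2 lie left of the line in all 4 libraries and those of 10 pairs lie right of it.

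Many cytosolic synthetase genes are known targets of ATF4, the transcription factor of the amino acid response, which binds a composite element read here as TGATGNAA on either strand. The 250 bases upstream of the RefSeq start (GRCm38.p6) were searched for it in the 26 synthetase genes that matched the promoter table by symbol. Matches were found for Aars, Gars and Tars, while 3.45% of 32851 promoters in the table held the element. The E-box CACGTG, searched likewise, was present upstream of Aars, Farsb and Iars and in 6.02% of all promoters. The GC box GGGCGG was present upstream of 17 of the 26 genes and in 32.7% of all promoters, CCAAT upstream of 11 and in 33.8%, and TATAAA upstream of 3 (Aars2, Farsa and Tars2) and in 12.4%. Each motif was searched on both strands and counted on its own, whether or not another motif overlapped it. The 32851 promoters were not limited to genes expressed in these oocytes, so their shares are not those of like genes. Windows of Cars, Mars, Hars, Nars, Rars, Vars, Wars, Lars, Pars2 and Hars2 were not analysed here. The upstream sequences of the 3 genes with the ATF4 element are printed so that its place can be seen, with that of Yars2, the only synthetase gene past the size rule in any comparison. They run along the gene's strand and end at the base before the start, with the match to TGATGNAA or its reverse complement in capitals. Their windows are chr8:111033592-111033841 on the plus strand (Aars), chr6:55037751-55038000 on the plus strand (Gars), chr15:11399659-11399908 on the minus strand (Tars) and chr16:16302715-16302964 on the plus strand (Yars2), all GRCm38.p6.
Aars: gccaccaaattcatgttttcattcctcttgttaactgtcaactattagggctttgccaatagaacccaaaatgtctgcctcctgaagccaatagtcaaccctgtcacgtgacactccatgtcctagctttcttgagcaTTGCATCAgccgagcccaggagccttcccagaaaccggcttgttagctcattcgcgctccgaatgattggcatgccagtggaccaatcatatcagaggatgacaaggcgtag
Gars: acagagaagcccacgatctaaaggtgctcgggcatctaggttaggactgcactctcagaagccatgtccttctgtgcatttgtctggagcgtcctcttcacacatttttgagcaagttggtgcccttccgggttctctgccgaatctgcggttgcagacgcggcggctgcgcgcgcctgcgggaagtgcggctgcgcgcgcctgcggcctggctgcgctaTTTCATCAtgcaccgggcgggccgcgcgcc
Tars: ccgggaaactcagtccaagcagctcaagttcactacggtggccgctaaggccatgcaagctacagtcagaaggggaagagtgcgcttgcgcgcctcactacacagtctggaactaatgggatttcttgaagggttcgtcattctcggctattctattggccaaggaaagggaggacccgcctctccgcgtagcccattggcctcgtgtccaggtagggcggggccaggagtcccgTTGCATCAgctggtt
Yars2: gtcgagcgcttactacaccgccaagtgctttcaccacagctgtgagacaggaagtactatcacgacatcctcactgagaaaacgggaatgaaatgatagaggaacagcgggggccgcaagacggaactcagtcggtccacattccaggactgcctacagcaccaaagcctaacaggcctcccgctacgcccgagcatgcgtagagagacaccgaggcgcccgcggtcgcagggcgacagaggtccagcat
All 3 matches read as the reverse complement on the gene's strand. Counted back from the start, with the base before it as -1, they run from -112 to -105 in Aars, from -30 to -23 in Gars and from -15 to -8 in Tars. A match is a run of letters and does not show that a factor binds there.

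Growing deletion oocytes, set against growing control oocytes, show synthetase RNAs during growth with less Dcaf13. Most synthetase genes stood above their control value, the mitochondrial ones by more, but no gene of the set met the size rule. Of the 26 genes at 5 FPKM or more in 1 of these libraries, 0 were called higher, against 2.62% of all genes at that minimum, and 0 lower, against 2.51%. At the smaller size of 1.5-fold, 4 of the 26 were higher, against 10.1% of all genes, and 0 lower, against 6.84%. These were Cars2, Yars2, Hars and Mars. With a trend of GC content and transcript length removed, Cars2 (0.55) and Mars (0.49) missed this smaller size and Dars (0.60) passed it. Cars2 stood at 14.9 FPKM in growing deletion and 8.59 FPKM in growing control oocytes (0.73 as a difference in log2(FPKM + 1)). Yars2 stood at 10.7 and 6.71 FPKM in the same order (0.60), Hars at 18.2 and 11.6 FPKM (0.60), and Mars at 11.8 and 7.49 FPKM (0.59). Mars shares 68 bases at its end with Ddit3 on the opposite strand, and the strand handling of the counting is not given in the sources used here. Ddit3, a stress response factor, stood at 153.5 FPKM in growing deletion and 117.6 FPKM in growing control oocytes, so the value of Mars is uncertain. The value of Aars is uncertain likewise, since Exosc6 overlaps it by 532 bases on the same strand, with 24.2 FPKM in growing deletion and 20.3 FPKM in growing control oocytes. Iars2 shares 85 bases with Rab3gap2 on the opposite strand, which stood at 15.7 and 13.3 FPKM in these libraries.

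Of the 15 measured mitochondrial genes, 13 lay above control, with a median difference of 0.44. The 19 measured cytosolic genes had 16 above control and a median of 0.16. All 11806 genes that reached 1 FPKM somewhere had a median of 0.07, with 57.1% above 0 and 42.4% below. Among mitochondrial genes under 5 FPKM, Aars2 stood at 2.83 FPKM in growing deletion and 1.34 FPKM in growing control oocytes (0.71), and Iars2 at 3.93 and 2.30 FPKM (0.58). Moderate differences above 0 were also seen for Tars2 (0.47), Ears2 (0.46) and Sars2 (0.44). The measured mitochondrial genes below control were Lars2 (-0.25) and Wars2 (-0.11), and Vars2 (0.04) lay at -0.25 without the GC and length trend described below. Without Lars2 and Fars2, which were set aside after their values were seen, the other 15 mitochondrial genes summed to 110.4 FPKM in growing deletion and 82.4 FPKM in growing control oocytes. All 17 mitochondrial genes summed to nearly equal values, 468.7 and 465.3 FPKM in the same order. Among cytosolic genes, the lowest differences belonged to Iars, at 63.0 FPKM in growing deletion and 86.7 FPKM in growing control oocytes (-0.46), and Qars (-0.20). Dars (0.44), Aars (0.40) and Rars (0.39) followed Hars and Mars at the upper end.

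The classes overlapped. Cytosolic class I genes had a median difference of 0.15 with 7 of 9 above control, and cytosolic class II genes 0.27 with 9 of 10. Mitochondrial class I genes had a median of 0.46 with 7 of 9 above control, and mitochondrial class II genes 0.34 with 6 of 6. The multisynthetase complex enzymes had a median of 0.26 with 6 of 8 above control. Across the 7934 genes at the minimum with a reference transcript, GC-rich transcripts tended to have higher differences (Spearman's rho of 0.37 with GC content), a trend that can shift every member. With the trend of GC content and length removed, the mitochondrial median was 0.25 with 11 of 15 above 0, the cytosolic median 0.13 with 15 of 19, and the median of all genes 0.06.

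Fully grown deletion oocytes, set against fully grown control oocytes, show the end of growth. Cytosolic genes again lay mostly above control, while mitochondrial genes lay evenly on both sides. None of the 24 genes at the minimum was past the size rule, against 1.08% of all genes higher and 1.09% lower, nor past 1.5-fold, against 6.29% higher and 4.9% lower. Sars2 came closest, at 13.4 FPKM in fully grown deletion and 8.65 FPKM in fully grown control oocytes (0.58). Next were Hars at 14.5 and 9.71 FPKM in the same order (0.53), Wars at 48.9 and 34.6 FPKM (0.49), Aars at 10.7 and 7.45 FPKM (0.47), and Gars at 37.5 and 27.9 FPKM (0.41). At the other end Rars2 stood at 25.0 FPKM in fully grown deletion and 32.0 FPKM in fully grown control oocytes (-0.34), Dars at 24.8 and 28.1 FPKM (-0.17) and Iars at 67.1 and 74.0 FPKM (-0.14). Of the 19 measured cytosolic genes 14 were above control with a median of 0.15, and of the 15 mitochondrial genes 8 with a median of 0.00. Across all genes at 1 FPKM the median was 0.03 with 53.3% above 0 and 46.6% below. Cytosolic genes outside the multisynthetase complex were above control in 10 of 11 cases, and the complex enzymes in 4 of 8. Without the GC and length trend these counts were 8 of 11 and 3 of 8. The trend with GC content was also present here (rho 0.41 over 7342 genes), and without it the cytosolic median was 0.05, with 11 of 19 above 0, and the mitochondrial median -0.02, against 0.00 for all genes. Among the genes named above, Hars (0.51), Gars (0.38) and Wars (0.34) then stood over Sars2 (0.25) and Aars (0.15). At the other end were Rars2 (-0.24), Iars (-0.15) and Dars (-0.03).

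**Figure D3:**
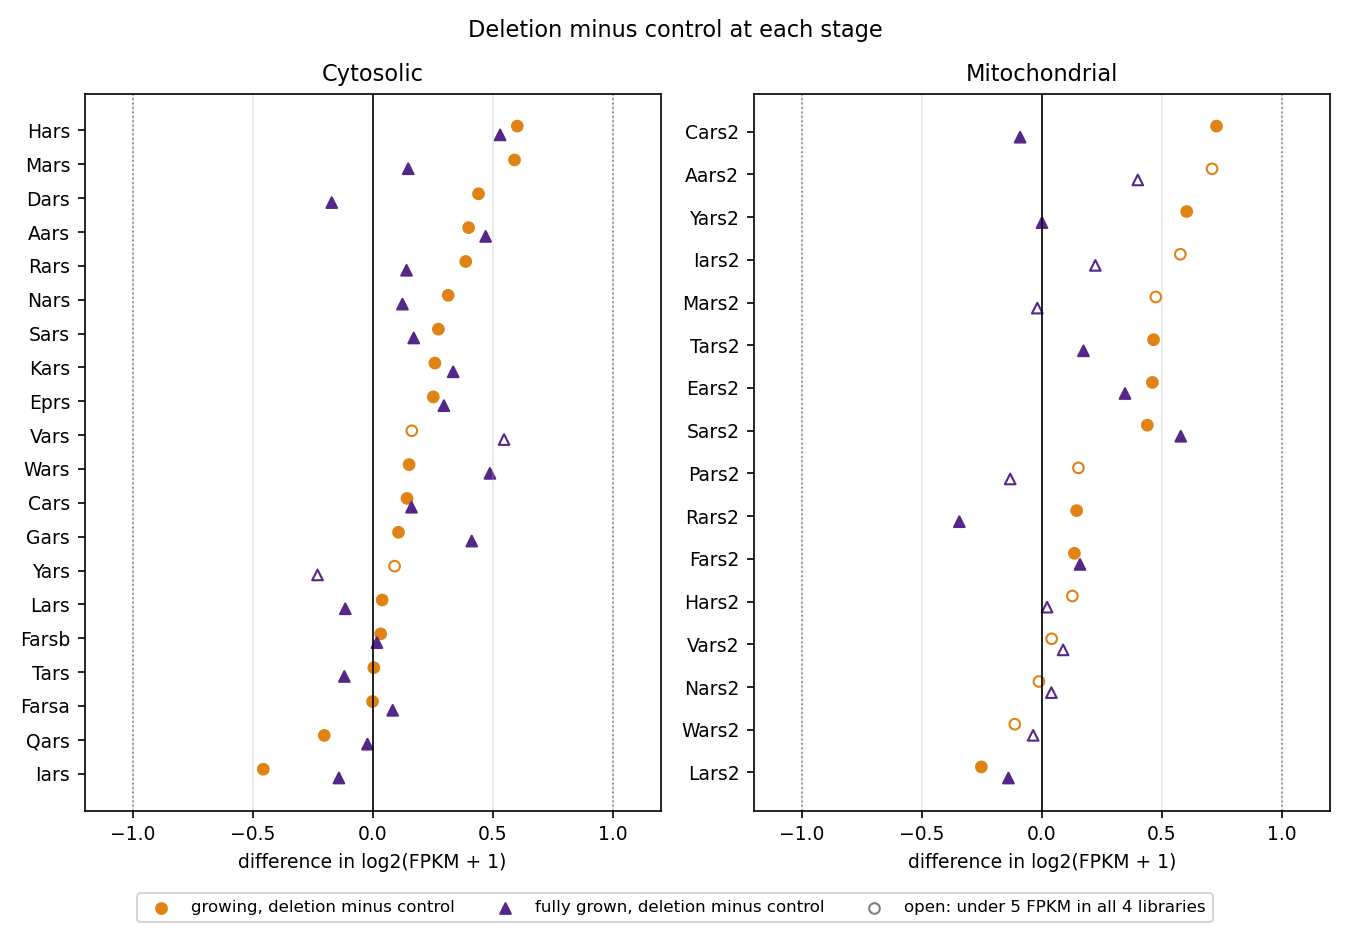
Difference between deletion and control in log2(FPKM + 1) for 36 synthetase genes, circles for growing and triangles for fully grown oocytes, sorted by the growing value; open symbols mark genes under 5 FPKM in all 4 libraries and dotted lines the size rule at -1 and 1. No symbol reaches a dotted line; Cars2 (0.73) and Iars (-0.46) are the extremes among filled growing symbols.

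The growing and fully grown deletion comparisons share no library, so the sign of each gene can be read in both. Of the 19 measured cytosolic genes, 13 lay above control at both stages and 2, Iars and Qars, lay below at both. Of the 15 measured mitochondrial genes, 8 lay above at both and 2, Lars2 and Wars2, below at both. Among all genes at 1 FPKM, 37.8% lay above control at both stages and 27% below. The genes with the ATF4 element did not lie alike. In growing and then fully grown oocytes the differences were 0.40 and 0.47 for Aars, 0.11 and 0.41 for Gars, and 0.01 and -0.12 for Tars. The stages differed most for Cars2 (0.73 in growing and -0.09 in fully grown oocytes), Dars (0.44 and -0.17) and Yars2 (0.60 in growing oocytes, with 3.64 FPKM in both fully grown libraries). Without the GC and length trend, and among differences above 0.1, those of Fars2 and Vars in growing oocytes and of Aars2, Cars, Fars2 and Mars in fully grown oocytes lay below 0. The differences between stages were not tested, since each rests on 4 single libraries.

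Fully grown control oocytes, set against growing control oocytes, describe growth in controls, and stage, age and PMSG cannot be told apart there. Mitochondrial genes were mostly at lower FPKM in fully grown oocytes, and cytosolic genes differed little. None of the 25 genes at the minimum was past the size rule, against 1.11% of all genes higher and 3.07% lower. At 1.5-fold, 0 were higher, against 3.6% of all genes, and 1 was lower, against 10.7%. That gene was Yars2, at 3.64 FPKM in fully grown and 6.71 FPKM in growing control oocytes (-0.73). Of the 15 measured mitochondrial genes 13 lay below their growing value, with a median of -0.29, and of the 19 cytosolic genes 12, with a median of -0.10, against a median of -0.10 and 60.4% below 0 among all genes. Scarce genes with low differences included Vars2, at 0.825 FPKM in fully grown and 2.26 FPKM in growing control oocytes (-0.84), and Iars2, at 0.900 and 2.30 FPKM (-0.80).

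Lars2 lay on the other side, at 305 FPKM in fully grown and 240 FPKM in growing control oocytes (0.34), as did Rars at 113 and 92.0 FPKM (0.30) and Nars at 51.5 and 45.3 FPKM (0.18). Other low differences at 5 FPKM or more were those of Tars2 (-0.45), at 5.06 FPKM in fully grown and 7.28 FPKM in growing control oocytes, Sars2 (-0.41), at 8.65 and 11.8 FPKM, and Qars (-0.31), at 135 and 168 FPKM. The most abundant mitochondrial gene was thus higher in the later library and most scarce ones lower, and the sum over mitochondrial genes was 507 FPKM in fully grown and 465 FPKM in growing control oocytes. With the GC and length trend removed, the mitochondrial median was -0.12, near the -0.09 of all genes, and the cytosolic median was -0.01.

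Fully grown deletion oocytes, set against growing deletion oocytes, describe growth with less Dcaf13 and gave the only synthetase gene past the size rule. Yars2, the mitochondrial tyrosine enzyme gene, was at 3.64 FPKM in fully grown and 10.7 FPKM in growing deletion oocytes, a difference of -1.34. It lies on chromosome 16 of mm9, from 16303057 to 16309733 on the plus strand as the table lists it. It was thus 1 gene called lower of 26 at the minimum, against 8.75% of all genes, with 0 higher, against 2.7%. Just outside the rule was Cars2, at 7.30 FPKM in fully grown and 14.9 FPKM in growing deletion oocytes (-0.94). Iars2, under the minimum, had a difference of -1.15, at 1.22 FPKM in fully grown and 3.93 FPKM in growing deletion oocytes. At 1.5-fold, 5 genes were lower (Yars2, Cars2, Tars2, Mars and Dars), against 19.2% of all genes, and 0 higher, against 7.96%. Mars (-0.57) missed this size without the GC and length trend.

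Tars2 stood at 5.83 FPKM in fully grown and 10.4 FPKM in growing deletion oocytes (-0.74), Mars at 6.72 and 11.8 FPKM (-0.73), and Dars at 24.8 and 39.3 FPKM (-0.64). Of the 15 measured mitochondrial genes 14 lay below their growing value, with a median of -0.57, while the 19 cytosolic genes had 11 below and a median of -0.06. All genes at 1 FPKM had a median of -0.11 and 58.5% below 0. Lars2 was the exception among mitochondrial genes, at 277 FPKM in fully grown and 202 FPKM in growing deletion oocytes (0.45). The highest cytosolic differences were those of Wars (0.17), Kars (0.16) and Farsa (0.13). With the GC and length trend removed, the mitochondrial median was -0.54 and that of all genes -0.10.

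Growth in the deletion and growth in controls share no library, and 13 of the 15 measured mitochondrial genes lay below their growing value in both, against 46.2% of all genes. Among cytosolic genes this held for 8 of 19. Without the trend, and among measured genes with differences over 0.1 in size, those of Aars2, Cars, Cars2 and Wars over growth in controls and of Sars2 over growth in the deletion lay above 0. Fars2, with smaller differences (-0.08 in controls and -0.05 in the deletion), lay at 0.15 and 0.20 without the trend. Of the 15 measured mitochondrial genes, 11 then lay below 0 over growth in controls and 12 over growth in the deletion. The mitochondrial genes without Lars2 and Fars2 summed to 66.8 FPKM in fully grown deletion and 67.0 FPKM in fully grown control oocytes. In the growing deletion and growing control libraries the sums given above were 110.4 and 82.4 FPKM. By these sums the fully grown libraries were close to each other and the growing deletion library stood highest. The order differed with Lars2 and Fars2 included. The sums were then 468.7 FPKM in growing deletion and 465.3 FPKM in growing control oocytes, and 494.4 FPKM in fully grown deletion and 506.8 FPKM in fully grown control oocytes. The growing deletion library enters both the deletion comparison at the growing stage and the growth comparison in the deletion, so their values are not independent. By the most common ratio of low values, its depth relative to the growing control library was 1.04, that of the fully grown deletion library 1.10 and that of the fully grown control library 1.

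**Figure D4:**
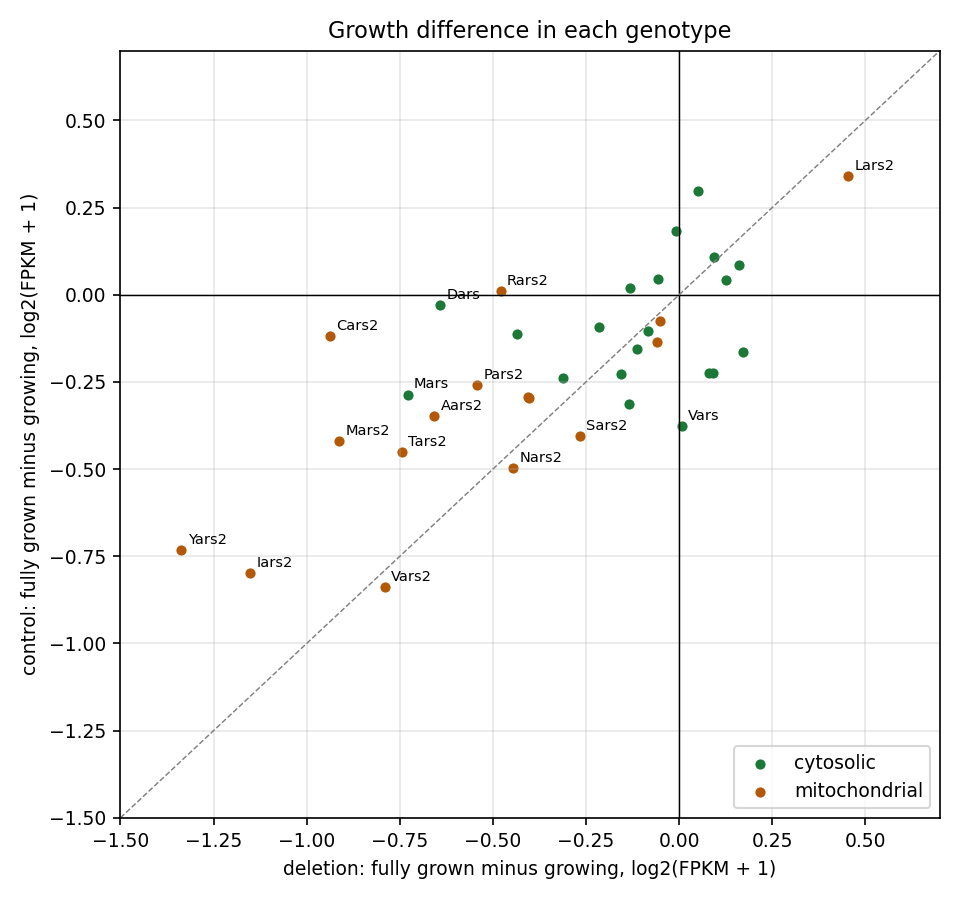
Difference between fully grown and growing oocytes in log2(FPKM + 1), deletion on the horizontal and control on the vertical axis, 1 point for each of 36 synthetase genes; the dashed line marks equal differences. Most mitochondrial points lie below 0 on both axes, with Yars2 (-1.34 in deletion, -0.73 in control) farthest left and Lars2 (0.45 and 0.34) at the upper right.

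The scaffold genes of the multisynthetase complex differed in direction between the stages. Aimp2, whose product holds the complex together, stood at 132 FPKM in growing deletion and 95.6 FPKM in growing control oocytes, and at 68.5 FPKM in fully grown deletion and 79.5 FPKM in fully grown control oocytes. Eef1e1 stood at 98.6 FPKM in growing deletion and 81.6 FPKM in growing control oocytes, and at 125 FPKM in fully grown deletion and 142 FPKM in fully grown control oocytes. Aimp1 stood at 55.8 FPKM in growing deletion and 46.2 FPKM in growing control oocytes, and at 46.1 FPKM in fully grown deletion and 54.2 FPKM in fully grown control oocytes. All 3 were above control in growing oocytes (0.27 to 0.46) and below control in fully grown oocytes (-0.23 to -0.18), none past the size rule. Median-ratio rescaling and removal of the GC and length trend left these 6 signs as they were.

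Selenocysteine has no synthetase of its own. Its tRNA is first charged with serine by the product of Sars and then converted by the kinase of Pstk and the enzyme of Sepsecs. Sepsecs stood at 16.5 FPKM in fully grown and 5.69 FPKM in growing deletion oocytes (1.39), and at 23.3 FPKM in fully grown and 10.98 FPKM in growing control oocytes (1.02, and 0.97 without the GC and length trend). It was called higher in both growth comparisons and was the only gene past the size rule among the 9 listed synthetase-like and partner genes. That made 1 higher of 5 at the minimum in the deletion, against 2.7% of all genes, and 1 of 6 in controls, against 1.11%. The median difference of the list was -0.43 over growth in the deletion and -0.20 over growth in controls, against -0.11 and -0.10 for all genes, and 0.03 in growing and -0.12 in fully grown deletion oocytes, against 0.07 and 0.03. In growing oocytes Sepsecs stood below control in the deletion (-0.84), and in fully grown oocytes too (-0.47). Pstk stood at 54.4 FPKM in growing deletion and 43.2 FPKM in growing control oocytes, and at 30.6 FPKM in fully grown deletion and 33.2 FPKM in fully grown control oocytes. Aarsd1, an alanine tRNA editing protein gene and the most abundant of this list, was at 79.3 FPKM in growing deletion and 77.8 FPKM in growing control oocytes, and at 58.5 FPKM in fully grown deletion and 52.8 FPKM in fully grown control oocytes. Mitochondria lack a synthetase that joins glutamine to its tRNA directly and make the charged tRNA by amidation. The amidotransferase genes Qrsl1, Pet112l and Gatc were all at 5.23 FPKM or less.

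Genes of tRNA modification and maturation included some past the size rule. Of 47 at the minimum in the growing comparison, 2 were higher in the deletion and 0 lower, against 2.62% and 2.51% of all genes. Of 61 measured, 47 lay above control with a median of 0.28, against 57.1% and 0.07 for all genes. Those called were Mocs3, at 6.57 FPKM in growing deletion and 1.46 FPKM in growing control oocytes (1.62), and Urm1, at 5.49 and 2.09 FPKM (1.07, and 0.94 without the GC and length trend), both of which act in thiolation of tRNA. In fully grown oocytes 0 of 36 were past the rule, against 1.08% of all genes higher and 1.09% lower, and the median was 0.08, against 0.03. Growth in the deletion had 10 of 46 lower and 1 higher, against 8.75% and 2.7% of all genes, with a median of -0.34, against -0.11. Growth in controls had 2 of 41 lower and 1 higher, against 3.07% and 1.11%, with a median of -0.16, against -0.10. The lowest differences over growth in the deletion were those of Yrdc (-2.56), which makes a threonine-derived tRNA modification, Mocs3 (-2.35) and Ctu2 (-1.93), a thiolation enzyme gene. Yrdc was also lower over growth in controls, at 4.96 FPKM in fully grown and 20.1 FPKM in growing control oocytes (-1.82), together with Qtrtd1 (-1.07, and -0.997 after median-ratio rescaling), a queuine transferase subunit gene. Thg1l, which prepares histidine tRNA for charging, was higher over growth in both, at 44.8 FPKM in fully grown and 13.0 FPKM in growing deletion oocytes (1.71) and at 32.9 and 9.74 FPKM in controls (1.66). The most abundant genes of the list were Ssb, which encodes the La protein and averaged 488 FPKM over the 4 libraries, and the RNase P subunit gene Rpp21 at 284 FPKM.

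Genes of the amino acid response, which includes many synthetase genes among its targets, had a median difference of 0.22 in growing and 0.04 in fully grown deletion oocytes, against 0.07 and 0.03 for all genes. Without the GC and length trend these medians were 0.10 and -0.08. In the growing comparison 0 of 19 at the minimum were higher, against 2.62% of all genes, and 1 was lower, against 2.51%. It was Cth of cysteine synthesis, at 3.58 FPKM in growing deletion and 12.6 FPKM in growing control oocytes (-1.57). The fully grown comparison had 0 of 16 past the rule, against 1.08% of all genes higher and 1.09% lower. Atf4 itself stood at 176 FPKM in growing deletion and 144 FPKM in growing control oocytes, and at 129 FPKM in fully grown deletion and 128 FPKM in fully grown control oocytes. Ddit3 stood at 206 FPKM in fully grown deletion and 113.9 FPKM in fully grown control oocytes (0.85). Over growth in the deletion, 1 of 18 at the minimum was higher, against 2.7% of all genes, and 3 were lower, against 8.75%. Slc7a11, a cystine transporter gene, was higher (1.18, and 0.94 without the trend), and Eif4ebp1 (-1.65), Psph (-1.40) and Chac1 (-1.36) were lower. In controls Chac1 (-1.22) was the only gene of the list past the rule, 1 of 18, against 3.07% of all genes lower. The medians were -0.18 over growth in both, against -0.11 for all genes in the deletion and -0.10 in controls. The RNA polymerase III genes include the machinery that transcribes tRNA. In the growing deletion comparison 0 of 16 at the minimum were called, against 2.62% of all genes higher and 2.51% lower. In the fully grown comparison 0 of 15 were called, against 1.08% and 1.09%. The medians of these genes were 0.22 and 0.04, against 0.07 and 0.03 for all genes, and 0.14 and -0.014 without the GC and length trend. Over growth in the deletion 2 of 16 were lower, against 8.75% of all genes, and in controls 1 of 16, against 3.07%, with medians of -0.35 and -0.25, against -0.11 and -0.10. Maf1, a repressor of that polymerase, was lower over growth in the deletion (-1.56) and in controls (-1.24). Brf2 was the most abundant of these genes, with 217 FPKM as its mean over the 4 libraries, followed by Polr3a at 41.3 FPKM.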

How the data were processed

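RNA of 4 libraries of 10 oocytes each was measured by Smart-seq2 and Tn5 library preparation, per the labels' protocols. The authors deposited FPKM values for each gene. Tools named in the submitters' processing notes, without roles, are Cufflinks 2.2.1, Bowtie2 2.1.0, TopHat2 2.0.11 and CASAVA 1.8, with mm9 as the build. Not given in the sources used here are gene models, strand handling and filters. All 4 per-sample tables were identical to the whole-series table, and sequencing depth is unknown apart from the relative depths in the text.

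Symbols sorted in byte order were paired with the value rows in file order, an inference from the values that was not checked with the submitters. Differences are log2(FPKM + 1), with the size rule in the text. With 1 library per group no test was possible, and lists are described by counts and medians beside those of all genes. The members and gene lists were chosen with earlier results of these data known. Genes were named by a rule that took Dcaf13, every member past the size rule, the most and least abundant members, the complex scaffolds, the 3 highest and 3 lowest differences per comparison, and in other lists the 2 most abundant genes and up to 3 called genes per direction; all further members are named because the set is small. Alternatives were a pseudocount of 0.1, no minimum, median-ratio rescaling, removal of a quadratic trend with GC content and length of GENCODE M21 transcripts (found for all 37 members), the deposited pairing and a size of 1.5-fold. Of 11 short promoter motifs searched, 5 are given. Some genes that enter the counts and medians are not reported here by name. The calculations used Python 3.11.15, pandas 2.3.3, NumPy 2.4.6 and SciPy 1.17.1 and were tested on simulated data.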

Additional observations from a re-analysis of the deposited data

How the results depend on the processing

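No paired analysis was possible because each group held 1 library, and no library was left out. The counts of members past the size rule were 0 in each direction in the first 3 comparisons. They stayed at 0 with a pseudocount of 0.1, without the minimum, after rescaling and without the GC and length trend. The deposited pairing also gave 0. There 31 of the 37 symbols held another row, so that count does not check the same values. Over growth in the deletion 1 member was lower, against 2 with a pseudocount of 0.1, 2 without the minimum and 0 in the deposited pairing, where the symbol Yars2 held another row. A size of 1.5-fold gave 4 higher in growing deletion oocytes, 1 lower over growth in controls and 5 lower over growth in the deletion.

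Median differences of mitochondrial members moved with the setting. Over growth in controls the median was -0.44 with a pseudocount of 0.1, -0.12 without the GC and length trend and -0.060 in the deposited pairing. Over growth in the deletion it was -0.83 with a pseudocount of 0.1 and -0.12 in the deposited pairing. In growing deletion against control oocytes it was 0.25 without the trend and 0.25 in the deposited pairing. In fully grown oocytes it was -0.031 after rescaling and -0.022 without the trend, and the cytosolic median over growth in the deletion was 0.029 after rescaling and 0.0091 without the trend, all close to 0. In the deposited pairing 31 of the 37 symbols held another row, so its medians are largely those of other rows. The cause of the other shifts was not tested. Without the trend, 100 of the 112 member differences over 0.1 in size kept their sign, after rescaling all 112 did, and in the deposited pairing 65 did. Among the other genes, Urm1 (0.94) in growing oocytes, and over growth Sepsecs in controls (0.97) and Slc7a11 (0.94), Pus1 (-0.71) and Dus1l (-0.80) in the deletion missed the size rule without the trend. Qtrtd1 in controls (-0.997), and Pus1 (-0.93) and Dus1l (-0.96) in the deletion, missed it after rescaling.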
